A study of Saccharomyces cerevisiae with 6 samples.

Results

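The iron uptake genes described here are 10 genes of *Saccharomyces cerevisiae*, chosen by name from the 6277 genes listed in the deposited table, and all 10 were listed and measured. They are the cell wall mannoprotein genes *FIT1* (YDR534C), *FIT2* (YOR382W) and *FIT3* (YOR383C), the high-affinity iron transport genes *FET3* (YMR058W) and *FTR1* (YER145C), the siderophore transporter genes *ARN1* (YHL040C), *ARN2* (YHL047C), *SIT1* (YEL065W) and *ENB1* (YOL158C), and *TIS11* (YLR136C), also called *CTH2*, whose RNA-binding product promotes decay of mRNAs of iron-using proteins. Budding yeast takes up iron by reducing it at the cell surface and importing it through the Fet3-Ftr1 complex, or by importing it bound to siderophores, the iron carriers that other microbes release. When iron is scarce, the transcription factors Aft1 and Aft2 turn these genes on by binding a CACCC core in their promoters. The mRNAs of several of them have also been described in yeast as targets of nuclear RNA surveillance, in which the RNase III enzyme Rnt1 and the nuclear exosome with its 3′ to 5′ exoribonuclease Rrp6 take part.

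RNA was sequenced from 3 strains with 2 individually selected clones each, 6 libraries in all. Every strain lacked chromosomal *RRP6* and *MTR4*, was in the BY4741/4743 background and carried *MTR4* on both pRS416 and pRS415. The strains differed in the pRS413 plasmid, which held *RRP6* (WT), the exoribonuclease-inactive allele D238N (Rrp6 exo-) or no insert (*rrp6Δ*). Thus WT refers to a strain with plasmid-borne *RRP6*, and all cultures were grown at 30 °C to mid-log phase in SD medium lacking histidine, leucine and uracil.

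All 10 genes held the sequence TGCACCC, an extended form of the Aft core, on either strand within 500 bases upstream of the start codon. These genes are known Aft targets, so the match is a description of them. In RefSeq's R64 assembly the same search found it upstream of 2.33% of 6000 nuclear protein-coding genes. The shorter GCACCC and CACCC, which it contains, were found upstream of 7.62% and 33.5% of genes and, necessarily, of all 10. The match nearest the start codon is shown for each gene, because it is the feature that the 10 promoters share. Capitals mark the motif, and each line is read on the strand where the motif reads TGCACCC.
*FIT1* (chrIV:1505062-1505097, plus strand): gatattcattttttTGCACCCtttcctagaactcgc
*FIT2* (chrXV:1059385-1059420, minus strand): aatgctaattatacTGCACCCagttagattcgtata
*FIT3* (chrXV:1061219-1061254, plus strand): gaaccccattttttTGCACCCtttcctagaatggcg
*FET3* (chrXIII:388557-388592, plus strand): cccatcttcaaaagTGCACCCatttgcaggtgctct
*FTR1* (chrV:461894-461929, minus strand): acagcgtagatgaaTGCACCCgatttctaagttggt
*ARN1* (chrVIII:21210-21245, minus strand): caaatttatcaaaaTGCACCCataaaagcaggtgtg
*ARN2* (chrVIII:10640-10675, plus strand): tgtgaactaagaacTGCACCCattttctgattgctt
*SIT1* (chrV:27454-27489, minus strand): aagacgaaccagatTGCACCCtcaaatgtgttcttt
*ENB1* (chrXV:21427-21462, minus strand): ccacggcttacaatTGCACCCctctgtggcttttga
*TIS11* (chrXII:416811-416846, plus strand): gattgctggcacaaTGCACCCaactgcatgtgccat

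The far end of the shown motif lay 131 bases upstream of the start codon in *FIT2*, the nearest, and 447 bases in *ARN2*, the farthest. *FIT2* had 4 TGCACCC matches in its 500 bases, more than any other member. The windows of *FIT1* and *FIT3* shared 27 of 36 positions, a count that includes the motif itself, and lay at similar distances, 182 and 184 bases. *FIT2* and *FIT3* are neighbours on chromosome XV that face each other across 448 bases, and *FIT3* diverges from the reductase gene *FRE5* across 508 bases. No member overlapped another gene in the RefSeq annotation. No stretch of 50 bases, the read length, in any member occurred elsewhere in the genome, but 11.9% of such stretches in *FIT1* were repeated within *FIT1* itself, so its reads may be undercounted in every library.

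The values are scaled counts, that is, reads counted on a gene divided by a size factor for the library. From 34188755 to 39501874 reads were counted on genes per library, and the least covered member value, *TIS11* in Rrp6 exo- replicate 1, rested on 265 reads. *RRP6* was at 19503 and 21626 scaled counts in the WT clones, 18538 and 21173 in those of Rrp6 exo- and 4.17 and 8.33 in those of *rrp6Δ* (replicates 1 and 2), in keeping with the labels. Per kilobase in WT, the mating receptor gene of α cells, *STE3*, had a mean of 16450 scaled counts and *STE2*, that of a cells, 293, so the cultures had the expression of α cells. *MTR4* did not pass the test in either mutant. Rrp6 exo- replicate 1 stood apart in the iron uptake genes: it had the lowest value of the 6 libraries in 8 of the 10 genes, whereas it was lowest in 21.5% of all 5632 genes with a mean of at least 50. For the 10 genes, differences of Rrp6 exo- from WT are therefore given with and without that library.

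Differences between strains are given on the scale of log2(scaled count + 1) and were tested two-sided with limma in a single fit of the 6 libraries, with Benjamini-Hochberg adjustment over all 6277 genes and a threshold of 0.05. Across all genes, libraries that share a replicate number tended to deviate together, so a fit with that number as a block was also made. It is given where it changes a call. In the limma fit without the block, 0 of the 10 genes passed in any comparison, where 0.175% of all genes passed between *rrp6Δ* and WT, 0.112% between Rrp6 exo- and WT and 0.0159% between the mutants. In the same order edgeR without the block called 0.175%, 0.0956% and 0.0159% of all genes and again 0 of the 10. DESeq2 called 8.19%, 8.24% and 0.829% of the genes it gave an adjusted p and, of the 10, *FTR1* between Rrp6 exo- and WT. At an unadjusted limma p under 0.05 the comparisons held 2, 3 and 1 members, in the same order, beside 16.6%, 17% and 5.46% of all genes.

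**Figure D1:**
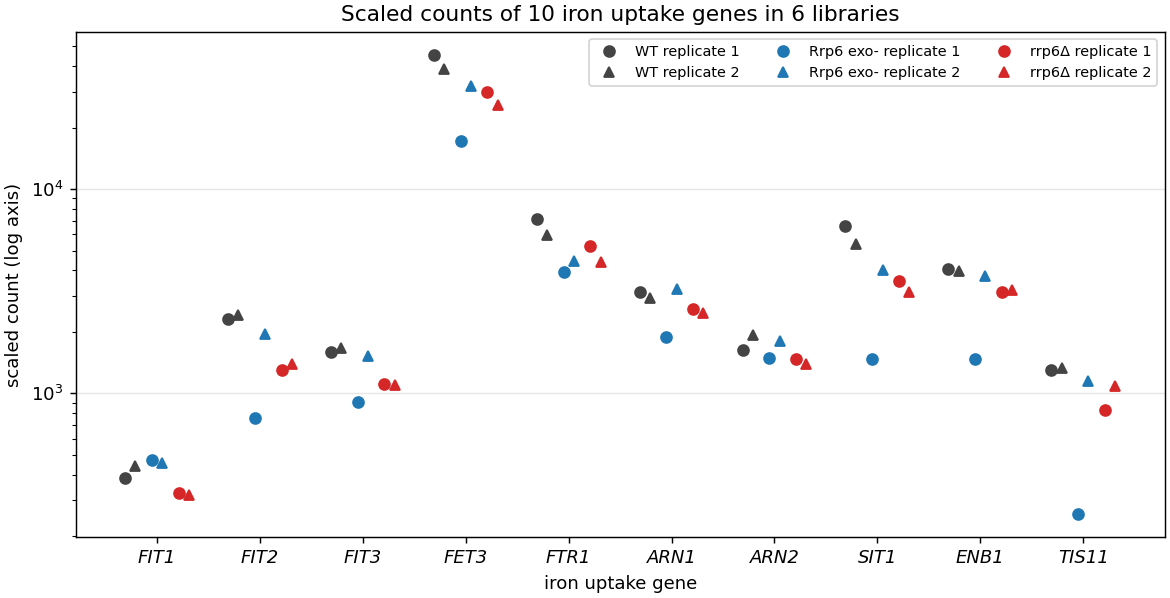
Scaled counts (log axis) of the 10 iron uptake genes, with 1 point for each of the 6 libraries, coloured by strain and shaped by replicate number. Both *rrp6Δ* libraries sit below both WT libraries in all 10 genes, and Rrp6 exo- replicate 1 is the lowest point in 8.

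The levels of the 10 genes in WT spanned a wide range. Per kilobase of annotated gene, *FET3* had the highest mean in WT at 21983 scaled counts, followed by *FTR1* at 5382 and *FIT2* at 5125. *SIT1* (3171), *FIT3* (2644), *ENB1* (2209), *ARN1* (1608), *TIS11* (1531) and *ARN2* (954) followed, and *FIT1* was lowest at 261 scaled counts per kilobase. Among neighbours in this order, *FTR1* and *FIT2* were the pair whose means differed by less than the larger of their SDs over the 2 WT libraries.

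*FET3* encodes the multicopper ferroxidase of the high-affinity transporter, which oxidizes iron before import. In bulk cultures a lower level per cell and fewer expressing cells cannot be told apart. *FET3* was at 45217 and 38803 scaled counts in the WT clones, 17110 and 32120 in those of Rrp6 exo- and 29752 and 25827 in those of *rrp6Δ* (replicates 1 and 2). All 4 mutant libraries lay below both WT libraries, and the Rrp6 exo- libraries were further apart than those of the other strains. The log2 difference from WT was -0.60 in *rrp6Δ* (standard error, SE, 0.29, limma adjusted p = 0.37) and -0.84 in Rrp6 exo- (SE 0.29, adjusted p = 0.24), and -0.38 in Rrp6 exo- without replicate 1. Neither passed the threshold, with the block (limma adjusted p = 0.15 and 0.063) or without.

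*FTR1* encodes the iron permease that partners Fet3. It was counted at 7131 and 5946 in the WT clones, 3930 and 4421 in those of Rrp6 exo- and 5270 and 4398 in those of *rrp6Δ*. The mutant libraries again lay below both WT libraries, and here the 2 Rrp6 exo- libraries were close. The log2 difference was -0.44 in *rrp6Δ* (SE 0.14, limma adjusted p = 0.22) and -0.64 in Rrp6 exo- (SE 0.14, adjusted p = 0.13), or -0.56 without Rrp6 exo- replicate 1. With the replicate block *FTR1* passed in both mutants, with a level 0.74 of WT in *rrp6Δ* (limma adjusted p = 0.046) and 0.64 of WT in Rrp6 exo- (adjusted p = 0.015). From replicate 1 to replicate 2, however, *FTR1* fell in WT and *rrp6Δ* and rose in Rrp6 exo-, so its own libraries did not all deviate together. The SE of *FTR1* was 0.14 without the block and 0.11 with it, and limma's SE also draws on the spread of other genes. Across the alternatives that kept all libraries of the comparison, its adjusted p ran from 0.043 to 0.37 in *rrp6Δ* and from 0.0022 to 0.25 in Rrp6 exo-. It was the only one of the 10 genes called with the block, under which limma called 11.5% of all genes in *rrp6Δ*, 12.7% in Rrp6 exo- and 0.0319% between the mutants. When single libraries were omitted, the log2 difference of *FTR1* ran from -0.57 to -0.30 in *rrp6Δ* and from -0.77 to -0.51 in Rrp6 exo-.

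The *FIT* genes encode mannoproteins of the cell wall that help to retain siderophore-bound iron. *FIT2* was at 2303 and 2432 scaled counts in the WT clones, 757 and 1944 in those of Rrp6 exo- and 1301 and 1399 in those of *rrp6Δ*. The *rrp6Δ* libraries agreed closely with each other and lay well below WT, while Rrp6 exo- replicate 2 was nearer WT and replicate 1 was the lowest of all. The log2 difference was -0.81 in *rrp6Δ* (SE 0.41, limma adjusted p = 0.39) and -0.96 in Rrp6 exo- (SE 0.41, adjusted p = 0.31), with -0.28 in Rrp6 exo- without replicate 1.

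*FIT3* also had Rrp6 exo- replicate 1 lowest and both *rrp6Δ* libraries below WT, with 1594 and 1658 scaled counts in the WT clones, 907 and 1527 in those of Rrp6 exo- and 1114 and 1094 in those of *rrp6Δ*. Its log2 difference was -0.56 in *rrp6Δ* (limma adjusted p = 0.32) and -0.47 in Rrp6 exo- (adjusted p = 0.39), or -0.091 without Rrp6 exo- replicate 1. *FIT1* had a different order. It was at 387 and 443 in the WT clones, 470 and 457 in those of Rrp6 exo- and 325 and 317 in those of *rrp6Δ*, so both Rrp6 exo- libraries lay above WT and both *rrp6Δ* libraries below. The log2 difference was 0.16 in Rrp6 exo- (SE 0.14, limma adjusted p = 0.61), or 0.14 without Rrp6 exo- replicate 1, and -0.37 in *rrp6Δ* (SE 0.14, adjusted p = 0.27). Between the mutants it was -0.53 (SE 0.14, limma adjusted p = 0.88, and 0.16 with the block), the lowest unadjusted p of the 10 genes in that comparison (0.0094).

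The siderophore transporters of the ARN family each import particular iron carriers. *SIT1*, also called *ARN3*, imports ferrioxamines. It was at 6589 and 5380 scaled counts in the WT clones, 1466 and 4021 in those of Rrp6 exo- and 3560 and 3151 in those of *rrp6Δ*, with all mutant libraries below WT. The log2 difference was -0.83 in *rrp6Δ* (SE 0.45, limma adjusted p = 0.42) and -1.29 in Rrp6 exo- (SE 0.45, adjusted p = 0.24), the largest of the 10 genes in both comparisons, and the second was -0.57 without Rrp6 exo- replicate 1.

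*ENB1*, also called *ARN4*, imports ferric enterobactin. It was at 4052 and 3993 in the WT clones, 1479 and 3757 in those of Rrp6 exo- and 3146 and 3212 in those of *rrp6Δ*, so that Rrp6 exo- replicate 2 lay just under WT and replicate 1 far under it. Its log2 difference was -0.34 in *rrp6Δ* (limma adjusted p = 0.74) and -0.77 in Rrp6 exo- (adjusted p = 0.40), or -0.098 without Rrp6 exo- replicate 1. *ARN1* and *ARN2*, transporters of fungal siderophores, had smaller differences. *ARN1* was at 3118 and 2941 in the WT clones, 1878 and 3246 in those of Rrp6 exo- and 2601 and 2472 in those of *rrp6Δ*, and the Rrp6 exo- libraries fell on both sides of WT. The log2 difference of *ARN1* was -0.26 in *rrp6Δ* (limma adjusted p = 0.67) and -0.29 in Rrp6 exo- (adjusted p = 0.60). Without Rrp6 exo- replicate 1 the second turned to 0.10. *ARN2* was at 1628 and 1927 in the WT clones, 1488 and 1809 in those of Rrp6 exo- and 1474 and 1393 in those of *rrp6Δ*. The Rrp6 exo- and WT libraries of *ARN2* overlapped, with a log2 difference of -0.11 (limma adjusted p = 0.75), against -0.31 in *rrp6Δ* (adjusted p = 0.35). The first was 0.030 without Rrp6 exo- replicate 1.

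*TIS11* showed the widest spread. It was counted at 1300 and 1328 in the WT clones, 257 and 1146 in those of Rrp6 exo- and 830 and 1082 in those of *rrp6Δ*. The 2 Rrp6 exo- libraries differed 4.45-fold, while the WT libraries of this gene were nearly equal. The log2 difference was -0.47 in *rrp6Δ* (SE 0.65, limma adjusted p = 0.78) and -1.27 in Rrp6 exo- (SE 0.65, adjusted p = 0.39), and -0.197 in Rrp6 exo- without replicate 1.

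**Figure D2:**
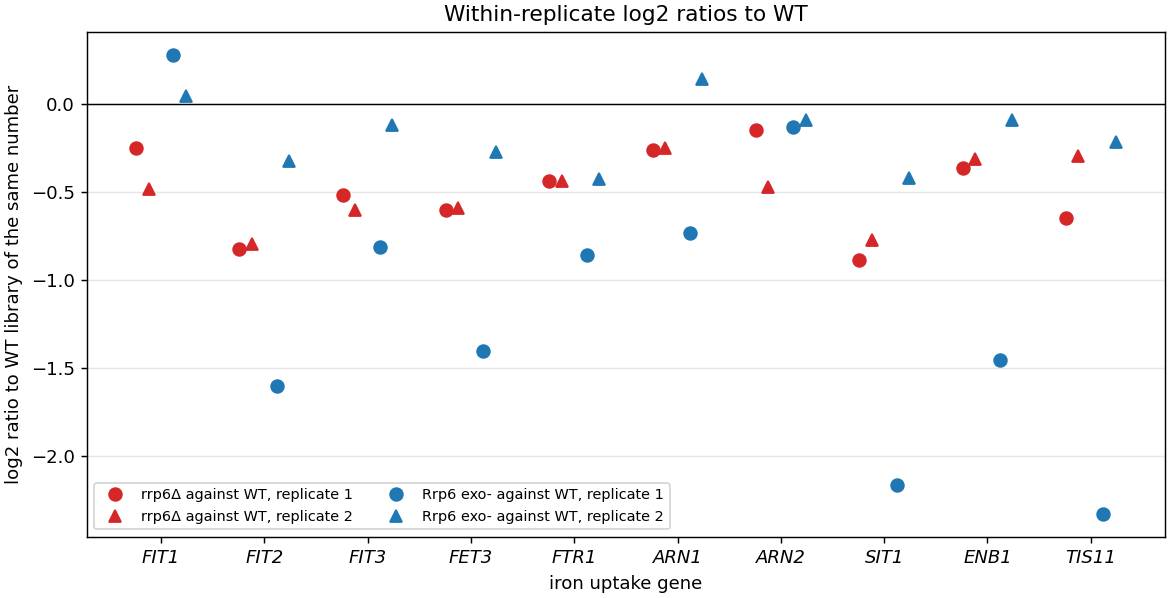
Log2 ratio of each mutant library to the WT library of the same replicate number, for the 10 iron uptake genes, with the line at 0 marking WT. The *rrp6Δ* ratios of both replicates lie between -0.89 and -0.14, whereas those of Rrp6 exo- reach -2.33 in replicate 1 and run from -0.43 to 0.14 in replicate 2.

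Set side by side, *rrp6Δ* had a difference from WT of similar size in both replicates for most of these genes. Both of its libraries lay below both WT libraries in 10 of the 10 genes, a pattern that 24.9% of all genes showed. The median log2 difference of the 10 was -0.45 (0.73 of the WT level), against 0.0053 over all genes, and it was -0.48 within replicate 1 and -0.48 within replicate 2. None of these differences passed limma without the block, and the standard errors of the joint fit included the spread between the Rrp6 exo- libraries. With only the 4 *rrp6Δ* and WT libraries in the fit, 8 of the 10 genes had an unadjusted limma p under 0.05, all lower in *rrp6Δ*, beside 10% of all genes lower at that p. Even so 0 passed adjustment (lowest limma adjusted p = 0.135, for *FIT2*), in a fit that called 0.0159% of all genes.

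In Rrp6 exo-, both libraries lay below both WT libraries in 7 of the 10 genes, beside 23.5% of all genes, and above them in *FIT1*, beside 21.7%. The median log2 difference was -0.71, against 0.011 over all genes, but it rested mainly on 1 library. It was -1.13 within replicate 1 and -0.17 within replicate 2, and went from -0.71 to -0.15 when Rrp6 exo- replicate 1 was left out. A clone, its culture, the quality of its RNA and its library cannot be told apart here as sources of this spread. The paper's methods report that RNA integrity varied among the samples. Both mutants were compared with the same WT libraries, so their values are not independent.

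Between the mutants, 3 of the 10 genes were lower in *rrp6Δ* than in Rrp6 exo- and 7 higher, with a median log2 difference of 0.18. That median was -0.31 without Rrp6 exo- replicate 1, where 9 genes were lower in *rrp6Δ*, and 0.56 without Rrp6 exo- replicate 2. The order of the mutants was thus not resolved for these genes. The exceptions to the overlap between the mutants were *FIT1* and *ARN2*, in which both *rrp6Δ* libraries lay below both Rrp6 exo- libraries, a pattern that 15.9% of all genes showed.

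Over the 6 libraries, 9 of the 10 genes varied together. The Pearson correlation of a gene's log2 values with the mean of the other 9 ran from 0.64 in *ARN2* to 0.99 in *FIT2*, while *FIT1* had -0.10. These are descriptions over 6 points that share libraries and size factors, and the drop in Rrp6 exo- replicate 1 weighs heavily in them. Of the 5622 other genes with a mean of at least 50 scaled counts, the closest in pattern to the mean of the 10 were *YCF1*, a vacuolar glutathione-conjugate transporter (Pearson r = 0.99), *MF(ALPHA)2*, an α-factor gene (0.99), *RPN10*, a proteasome subunit (0.99), *TCP1*, a chaperonin subunit (0.98), and *URA1*, dihydroorotate dehydrogenase (0.98). The log2 difference of these 5 genes from WT in *rrp6Δ* was -0.64 in *MF(ALPHA)2* and between -0.196 (*URA1*) and -0.099 (*YCF1*) in the others. *MF(ALPHA)2* was at 7406 and 6119 scaled counts in the WT clones, 2067 and 5733 in those of Rrp6 exo- and 4151 and 4475 in those of *rrp6Δ*.

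The other iron and copper genes were taken from 6 lists, of which 61 of 65 genes were measured. Without the block 0 of the 61 passed limma in any comparison, with 12, 13 and 6 at an unadjusted p under 0.05 in *rrp6Δ* against WT, Rrp6 exo- against WT and *rrp6Δ* against Rrp6 exo-. The shares of all genes at that p were 16.6%, 17% and 5.46%. edgeR also called 0 of the 61 without the block, and DESeq2 called 7, 8 and 3, beside 8.19%, 8.24% and 0.829% of all genes. With the block limma called 10 in *rrp6Δ* (8 lower, 2 higher), 12 in Rrp6 exo- (7 lower, 5 higher) and 0 between the mutants. Of all genes the same fit called 6.04% lower and 5.43% higher in *rrp6Δ*, and 7.04% lower and 5.7% higher in Rrp6 exo-. The adjusted p of single genes below come from limma with the replicate block, so they cannot be set beside the unblocked ones given for most iron uptake genes. With the block, the iron uptake genes other than *FTR1* had limma adjusted p from 0.077 (*FIT3*) to 0.48 (*TIS11*) in *rrp6Δ*. In Rrp6 exo- theirs ran from 0.055 (*SIT1*) to 0.50 (*ARN2*). Counts of genes that passed in each list are to be read beside that fit's shares of all genes.

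The median log2 difference was -0.12 in *rrp6Δ* and -0.09 in Rrp6 exo- over 7 regulators, and 0.02 and -0.11 over 8 reductase genes. Without Rrp6 exo- replicate 1 the Rrp6 exo- medians were -0.013 and 0.075. *AFT1* was at 6160 and 5691 scaled counts in the WT clones, 5713 and 6331 in those of Rrp6 exo- and 5660 and 5264 in those of *rrp6Δ*, a log2 difference of 0.023 in Rrp6 exo- (adjusted p = 0.88, and 0.097 without its replicate 1) and -0.12 in *rrp6Δ* (adjusted p = 0.37). *AFT2* differed by 0.15 and 0.019 (adjusted p = 0.23 and 0.89). Of 7 regulators, *GRX4*, a glutaredoxin that restrains Aft1, passed in both mutants, falling by 0.38 on the log2 scale in *rrp6Δ* (adjusted p = 0.046) and by 0.43 in Rrp6 exo- (adjusted p = 0.031). Of 8 *FRE* genes, which encode metalloreductases or their relatives, only *FRE4* passed, 0.51 higher in Rrp6 exo- (adjusted p = 0.031). That difference was 0.80 without Rrp6 exo- replicate 1, 0.23 without its replicate 2 and 0.33 without WT replicate 1. *FRE1*, the main surface reductase, had the largest difference of the list in *rrp6Δ* (-0.48, adjusted p = 0.16). Upstream of *FRE1* the motif TGCACCC was not found, although it was found upstream of 6 of the 8 *FRE* genes. *FRE5*, which shares its upstream region with *FIT3*, was low, at 44.2 and 64.5 scaled counts in the WT clones, 11.7 and 45.7 in those of Rrp6 exo- and 53.1 and 57.4 in those of *rrp6Δ*. *FRE3*, which lies upstream of *FIT2*, differed from WT by 0.046 in *rrp6Δ* and 0.12 in Rrp6 exo- (adjusted p = 0.86 and 0.60).

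Among the other transport genes, 1 of 11 passed in each mutant, beside 11.5% of all genes in *rrp6Δ* and 12.7% in Rrp6 exo-. It was *FET5*, a vacuolar relative of *FET3*, which fell by 0.27 in *rrp6Δ* (adjusted p = 0.044) and in Rrp6 exo- (adjusted p = 0.041). *FET4*, the low-affinity iron transporter of the plasma membrane, had the largest difference of that list and lay above WT, by 0.53 in *rrp6Δ* (adjusted p = 0.059) and 0.34 in Rrp6 exo- (adjusted p = 0.16). In the 6 measured copper supply genes only *ATX1*, the copper chaperone on the route to Fet3, passed, rising by 0.89 in *rrp6Δ* (adjusted p = 0.021). It was at 119 and 99.8 scaled counts in the WT clones, 106 and 93.5 in those of Rrp6 exo- and 211 and 195 in those of *rrp6Δ*, so that the *rrp6Δ* libraries stood above all others. Between the mutants it did not pass limma with the block (adjusted p = 0.11), and DESeq2 called it (adjusted p = 0.015). *CTR1*, the copper importer, had the largest difference of that list in Rrp6 exo- (-0.61, adjusted p = 0.195), but it was -0.012 without Rrp6 exo- replicate 1 and -1.21 without replicate 2.

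In the list of 11 further genes of the iron response, *BNA2*, the first enzyme of de novo NAD synthesis, fell by 0.68 in *rrp6Δ* and by 0.62 in Rrp6 exo- (adjusted p = 0.0083 and 0.0097). *CTH1*, the relative of *TIS11*, rose by 0.35 and 0.42 in the same strains (adjusted p = 0.032 and 0.018), at 2781 and 2589 scaled counts in the WT clones, 3459 and 3723 in those of Rrp6 exo- and 3491 and 3372 in those of *rrp6Δ*. *ECM4* fell by 0.57 in *rrp6Δ* (adjusted p = 0.047), and *PRY1* and *ICY2* rose by 0.48 and 0.43 in Rrp6 exo- (adjusted p = 0.039 and 0.015). The *PRY1* difference was 0.23 without Rrp6 exo- replicate 1 and 0.72 without replicate 2, and that of *ECM4* was -0.196 without *rrp6Δ* replicate 1 and -0.95 without replicate 2. *HMX1*, the heme oxygenase, followed the replicate number and not the strain. It was at 1877, 1197 and 1488 scaled counts in replicate 1 of WT, Rrp6 exo- and *rrp6Δ*, and at 3626, 4035 and 3514 in replicate 2.

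The list of iron-using enzymes also holds related proteins and partner subunits, and several of its mRNAs are known targets of the *TIS11* product. Its genes had a median log2 difference of -0.29 in *rrp6Δ* and -0.15 in Rrp6 exo- (-0.16 without Rrp6 exo- replicate 1). Of 18 genes, 4 fell and 0 rose in *rrp6Δ*, and 4 fell and 1 rose in Rrp6 exo-, beside the shares of all genes given above. *ACO1*, the iron-sulfur enzyme aconitase, had the largest fall, from 31264 and 31724 scaled counts in WT to 18141 and 13688 in the Rrp6 exo- clones and to 17050 and 14550 in those of *rrp6Δ*. Its fitted level was 0.50 of WT in both *rrp6Δ* and Rrp6 exo- (adjusted p = 0.0039 and 0.0028). *CYC1*, a cytochrome c gene, and *HEM15*, ferrochelatase, also fell in both mutants, by 0.495 and 0.34 in *rrp6Δ* and by 0.62 and 0.40 in Rrp6 exo-. *SDH3* of succinate dehydrogenase fell in *rrp6Δ* alone and *BIO2*, biotin synthase, in Rrp6 exo- alone, though the difference between the mutants did not pass for any of these genes. The *BIO2* difference in Rrp6 exo- was -0.41, and it was -0.16 without replicate 1 of that strain and -0.66 without replicate 2. The *SDH3* difference in *rrp6Δ* was -0.298, and it was -0.17 without WT replicate 2, -0.14 without *rrp6Δ* replicate 1 and -0.45 without *rrp6Δ* replicate 2. *GLT1*, glutamate synthase, rose by 0.49 in Rrp6 exo- (adjusted p = 0.021) and was 0.26 above WT in *rrp6Δ* (adjusted p = 0.11). DESeq2 called *GLT1* in *rrp6Δ* (adjusted p = 0.00029) and between the mutants (adjusted p = 0.015) too.

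*RNT1*, the RNase III gene, was at 1929 and 1515 scaled counts in the WT clones, 2379 and 1788 in those of Rrp6 exo- and 2341 and 2104 in those of *rrp6Δ*. It rose by 0.38 in *rrp6Δ* with the block (limma adjusted p = 0.036, and 0.37 without it), and the blocked fit left the Rrp6 exo- difference of 0.27 short of the threshold (adjusted p = 0.078). The *rrp6Δ* difference of *RNT1* was 0.20 without WT replicate 2, and that of Rrp6 exo- was 0.064 without its replicate 1.

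**Figure D3:**
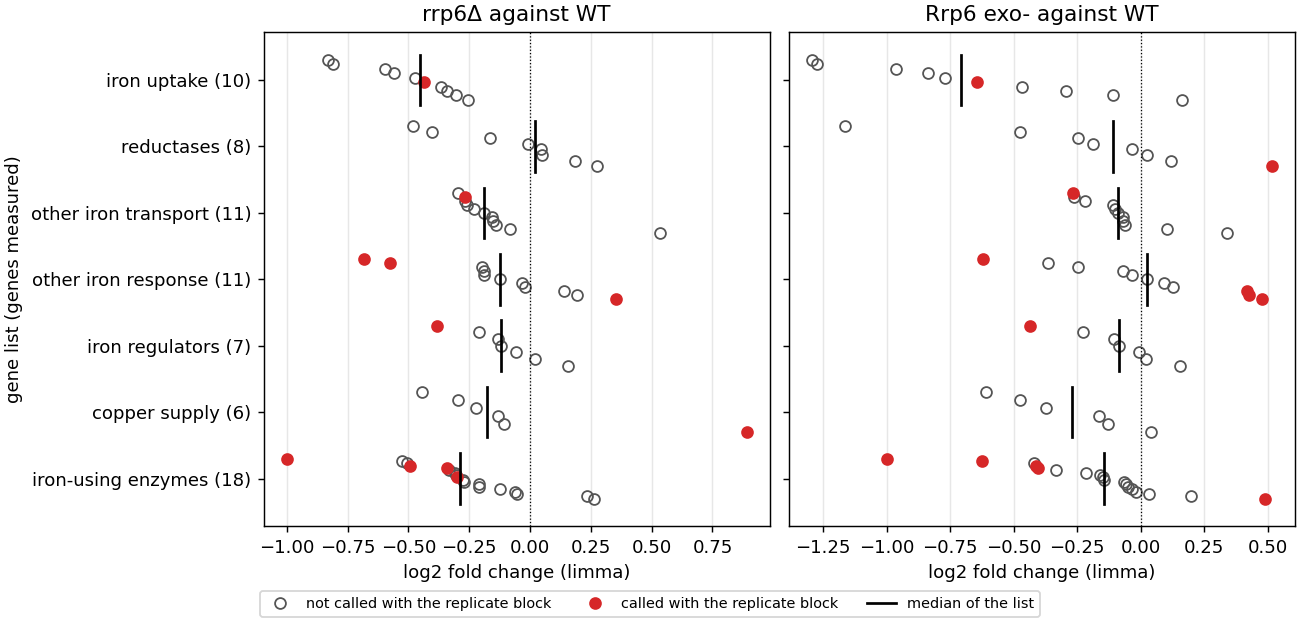
Limma log2 fold change against WT of each measured gene in the iron uptake genes and the 6 other lists, with 1 circle per gene, filled where the gene passed an adjusted p of 0.05 with the replicate block, and a bar at the median of each list. The 10 iron uptake genes have medians of -0.45 in *rrp6Δ* and -0.71 in Rrp6 exo- with 1 filled circle in each panel, *FTR1*.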

How the data were processed

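Ribosome-depleted total RNA was sequenced as stranded paired-end libraries. Per the paper's methods and the submitters' processing notes, reads were aligned in 2 passes with STAR to sacCer3, processed with Picard 1.124, counted with HTSeq 0.5.3 on R64 gene models and normalized with DESeq. The authors deposited the result as a signal, scaled counts, for 6277 genes. The strand setting of the counting is not given in the sources used here. In each library 100% of values were whole multiples of what 1 read is worth (tolerance 0.01 reads), so reads were recovered.

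Columns were matched to samples by library name. limma 3.58.1 (R 4.3.3) was fitted to log2(scaled count + 1) with strain as the only term, a variance trend and no filter. edgeR 4.0.16 (TMM) and DESeq2 1.42.0 were run on the recovered reads. The fits were also run on simulated counts. Those were drawn without a deviation shared by replicate number, so no support is taken from them. Replicate numbers are in the labels, and the difference of replicate 2 from replicate 1 correlated between strains across genes (r = 0.46 to 0.59), so they were taken to pair libraries. The clones of a strain are the replicates, and their counts differed by more than counting noise would give (chi-square divided by its degrees of freedom, 77.6 to 117.5). Read counts cover counting error only.

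Alternatives were the replicate block, edgeR, DESeq2, pseudocounts of 0.5 and 10, a mean minimum of 10, rescaling to total or upper quartile, no variance trend, only the 4 libraries compared, and each library left out.

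The 10 genes and the gene lists were chosen with earlier results of these data known. Other iron genes named are those called with or without the block, the largest difference of each list, and *AFT1*, *AFT2*, *HMX1*, *FRE3* and *FRE5*, besides *RRP6*, *MTR4*, *RNT1* and the 5 genes closest in pattern. Of the 65 genes written in the other lists, 4 were not analysed here. Sequences and positions are from RefSeq's R64, the assembly of sacCer3.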

Additional observations from a re-analysis of the deposited data

Results flagged for a closer look

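The genes *FIT1* and *PRY1* stood on opposite sides of WT in the mutants, with both libraries of each mutant outside the range of the WT libraries. *FIT1* was above WT in Rrp6 exo- and below it in *rrp6Δ*, a log2 difference between the mutants of -0.53 (limma adjusted p = 0.88, and 0.16 with the replicate block). *PRY1*, from the list of further iron response genes, was at 10150 and 10420 scaled counts in the WT clones, 16946 and 12061 in those of Rrp6 exo- and 9595 and 8472 in those of *rrp6Δ*, a log2 difference between the mutants of -0.67 (limma adjusted p = 0.88, and 0.11 with the block). The difference between the mutants did not pass in limma for either gene, and DESeq2 called that of *PRY1* but not that of *FIT1*. They are the genes of this order among the 10 iron uptake genes and the 61 others measured. Of all genes, 21.7% had both Rrp6 exo- libraries above both WT libraries and 24.9% had both *rrp6Δ* libraries below them. The share of all genes with both patterns was not counted, so no excess or lack can be read from these genes.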

How the results depend on the processing

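With the replicate block, 1 iron uptake gene, *FTR1*, was called in *rrp6Δ* and 1 in Rrp6 exo- where limma without it called 0. Of the other iron and copper genes 10 and 12 were called, beside 11.5% and 12.7% of all genes. edgeR with the block gave 1 and 1 iron uptake genes and 10 and 13 others, beside 11.4% and 12.7% of all genes. DESeq2 gave 0 and 1, and 7 and 8 others, beside 8.19% and 8.24%. Between the mutants it gave 3 others, beside 0.829%. The block changed no other call of an iron uptake gene. Rescaling to the same total gave 1 other gene in Rrp6 exo-. The fits with each library left out in turn were made by limma without the block. They therefore do not show whether the calls made with the block hold without single libraries.

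The *rrp6Δ* median of -0.45 became -0.30 with libraries rescaled to the same total, which moved the median of all genes to 0.16, and -0.41 at the same upper quartile, and ran from -0.49 to -0.42 with a library left out. The median less that of all genes stayed at -0.46 in both. That of Rrp6 exo- was -0.60 at the same total, where the median of all genes was 0.12, and ran from -1.07 to -0.15 with a library left out, and that between the mutants from -0.31 to 0.56. *FTR1* was called at -0.44 (limma, block) and -0.43 (edgeR, block) in *rrp6Δ*, and at -0.64, -0.63 and -0.65 (DESeq2) in Rrp6 exo-.

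Directions turned only for differences that had not passed. Without single libraries the difference between Rrp6 exo- and WT ran from -0.69 to 0.10 in *ARN1* and from -0.25 to 0.030 in *ARN2* (0.011 without WT replicate 2). Between the mutants it ran from -0.53 to 0.83 in *FIT2*, -0.47 to 0.28 in *FIT3*, -0.21 to 0.696 in *FET3*, -0.36 to 0.43 in *ARN1*, -0.26 to 1.19 in *SIT1*, -0.24 to 1.10 in *ENB1* and -0.27 to 1.88 in *TIS11*, each lowest without Rrp6 exo- replicate 1 and highest without Rrp6 exo- replicate 2. DESeq2 gave -3.9e-05 for *FIT2* and -0.014 for *ARN1*, and edgeR -0.013 for *ARN1*. The other 492 values of single iron uptake genes kept their direction and their side of the threshold. Each strain has 2 libraries, which limits every comparison.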
